A study of Phoxinus septimaniae with 18 samples.

Results

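Gills of minnows were compared between a salt station close to a potash mine on the Llobregat River, with water of 18.1 ppt salinity, and a less saline reference station upstream. The fish are an invasive hybrid, which the labels call Phoxinus septimaniae x P. dragarum. All 6 gill libraries of the series were used, out of 18 libraries that also cover brain and liver: 3 were labelled salt and 3 reference. The libraries are labelled as wild fish of these stations, with no laboratory treatment. The labels give neither age nor sex, nor say whether tissue was pooled. Salinity and station coincide, so salinity cannot be told apart from any other difference between the stations or their fish.

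The gill is the organ in which a freshwater fish takes up salt from dilute water, and in which fish living in brine or sea water instead get rid of it. The work is done by ionocytes, epithelial cells with many mitochondria, through pumps, cotransporters and channels that cross the membrane several times. Tight junctions between the epithelial cells set how much salt leaks past them, and the same thin surface takes up oxygen and lies open to whatever lives in the water.

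The gill table held whole read counts for 55872 assembled transcripts, which fall into 24638 Trinity genes (all transcripts that share an identifier up to its isoform number). A protein hit was attached to 67.6% of the transcripts, and the first listed hits named 15096 different proteins. Most hits are zebrafish protein identifiers of the form ENSDARP, and the files do not pair them with gene names. Of 152 symbols in 17 lists of ion transport, junction, stress, hormone receptor, mitochondrial and cell marker genes, 0 were found as written. Neither named transporters nor cell markers could therefore be followed, and features appear under their identifiers. Mitochondrial COX1 is named below because its identifier holds that name. Total counts were 18077063, 24222245 and 17266320 in salt 1, 2 and 3, against 15998346, 15200774 and 24149018 in reference 1, 2 and 3. Levels are CPM, each count scaled to the total of its library. Over 11818 Trinity genes, each gill library correlated with the other gills at r from 0.929 to 0.967 on the log2 scale, with the brains at 0.575 to 0.608 and with the livers at 0.675 to 0.690. Each library has 1 such r per tissue. The r of single pairs of gill libraries, given below, was taken over 15838 Trinity genes and is a different measure. Marker genes could not be looked up, but the profiles separate by tissue as labelled.

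The library labelled salt 3 was very like reference 1, a library labelled with the other station. Between these libraries 0.788% of 14596 Trinity genes differed by more than 2-fold. In the other 14 pairs of gill libraries the share ran from 17.9% to 33.1%, and it was 18.5% to 33.1% among those of a single station. The log2 levels of salt 3 and reference 1 correlated across Trinity genes at r = 0.990, where the other pairs gave 0.826 to 0.892. Genes are not independent replicates, and these values only describe the libraries.

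**Figure D1:**
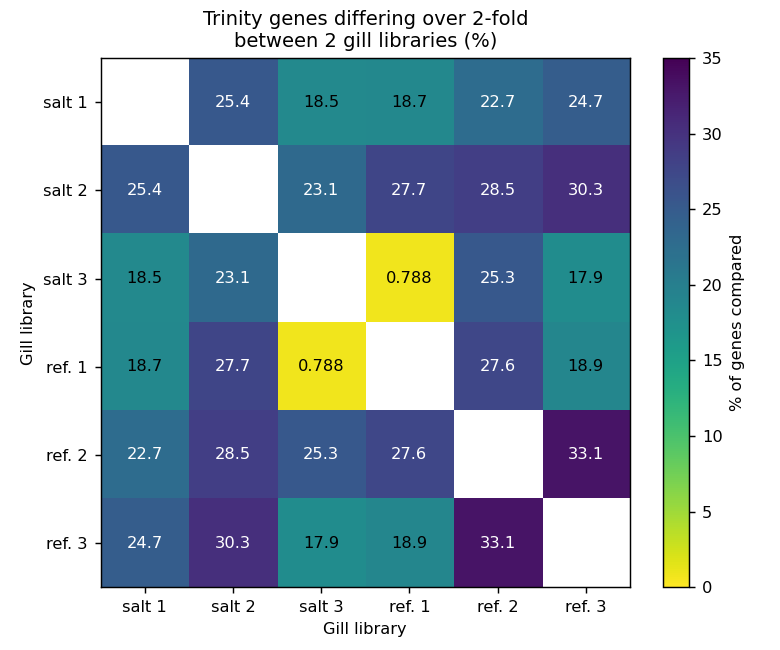
Each cell gives the percentage of Trinity genes that differ by more than 2-fold between the gill libraries of its row and column; darker colours mark larger shares, and the diagonal is blank. The library labelled salt 3 and reference 1 stand at 0.788%, while every other pair lies between 17.9% and 33.1%.

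The same pairing appears in which transcript of a gene is used, a measure that leaves out the level of the gene. Each transcript's part of its gene's count was computed for 31005 transcripts, from 7462 genes that had 100 or more counts in every gill library, and centred on the mean over libraries. Salt 3 and reference 1 correlated at r = 0.646, and the other 14 pairs at r from -0.394 to -0.108. Centring pulls the r of unrelated libraries towards negative values, so these do not show opposed use of transcripts. The library codes were read as a fish code followed by a tissue letter, which the labels do not spell out. Read so, 3 of the 6 gill codes recur in brain and liver. Over 11217 transcripts, salt 1 correlated with the brain and liver of its own code at 0.672 and 0.613, and reference 1 did so at 0.622 and 0.515. Salt 3 correlated with the brain and liver of its own code at -0.0718 and -0.0740, and with those of the code of reference 1 at 0.623 and 0.557. The labels as deposited were kept, and the main tests between the stations are given with and without the library labelled salt 3.

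The 2 libraries were not copies of each other. The median chi-square per gene, for a difference beyond the depth of the libraries, was 1.81 in this pair, where counting noise alone gives 0.455 and the other pairs gave 9.43 to 25.5. In all, 73 genes were over 2-fold higher in salt 3 and 42 in reference 1. Both were kept as labelled. These values do not show that they come from different fish, so n = 3 per station may count 1 fish at both stations. Read as fish, the codes also hold 9 over the 3 tissues, while the study's text speaks of 6. Reference 2 and 3 carry the letter A in their codes where reference 1 carries C. The labels do not explain the letter.

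A total of 362 Trinity genes stood at 1 CPM or more in both salt 3 and reference 1 and more than 10-fold above each of the other 4 gill libraries. The other pairs had 0 to 98 such genes. Of the 362 genes, 68 had a hit to a ciliate protein, 18.8% against 0.475% of all Trinity genes. Another 43 had hits under codes placed in none of the vertebrate, ciliate, invertebrate or mitochondrial classes, 11.9% against 1.81% of all genes. Zebrafish hits, in 67 genes, made up 18.5% against 49.5%, and the 165 genes with no hit made up 45.6% against 40.6%, near the share in the whole table.

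Across the stations, no Trinity gene passed the test. edgeR's quasi-likelihood test called 0 of 22958 Trinity genes (0%) at an adjusted p under 0.05, and 241 genes (1.05%) had an unadjusted p under 0.05, 135 higher (0.588%) and 106 lower (0.462%) in salt gills. Without salt 3 it called 0 of 24064 genes, the smallest adjusted p was 0.687, and 774 genes (3.22%) had an unadjusted p under 0.05, 420 higher (1.75%) and 354 lower (1.47%). limma-voom called 0 in both settings, with 408 (1.78%) and 958 genes (3.98%) at an unadjusted p under 0.05. DESeq2 called 5 genes (0.0203%) with all libraries, 4 higher and 1 lower, and 206 (0.836%) without salt 3, 71 higher and 135 lower. It was run on all 24638 genes, without edgeR's filter on low counts. With all libraries that filter left out DN492_c1_g1 and DN8434_c1_g2, described below, which DESeq2 called. Run without the filter, edgeR called 0 of 24638 genes. Fish differed strongly within a station: the biological coefficient of variation, the spread of a gene's level between fish beyond counting noise, was 0.726 with all libraries and 0.787 without salt 3.

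Summed per protein hit the picture was alike, with 0 of 14395 hits (0%) called by edgeR and 155 (1.08%) at an unadjusted p under 0.05, 78 higher (0.542%) and 77 lower (0.535%). Without salt 3 it called 0 hits, and 403 (2.71%) had an unadjusted p under 0.05, 243 higher (1.63%) and 160 lower (1.08%). DESeq2 called 4 hits (0.0265%) with all libraries and 92 (0.609%) without salt 3, 47 higher and 45 lower. limma-voom called 0 hits in both settings, with 194 (1.35%) and 508 (3.42%) at an unadjusted p under 0.05. At the level of single transcripts edgeR called 0 in both settings, with 377 (0.778%) and 1783 (3.32%) at an unadjusted p under 0.05, while DESeq2 called 260 (0.465%) and 1756 (3.14%).

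Each library was also left out in turn. Without reference 1, 827 genes (3.43%) had an unadjusted edgeR p under 0.05, and without salt 3 there were 774. Without any other library the count was between 78 (0.323%, without salt 2) and 408 (1.7%, without reference 2). Of the 774 genes found without salt 3, the left-out library itself lay on the salt side of the midpoint between the stations in 81 genes (10.5%), against 36.3% of all genes tested. Of the 827 found without reference 1, that library lay on the reference side in 107 (12.9%), against 41.5% of all genes tested. For the 206 genes DESeq2 called without salt 3, it was on the salt side in 7 (3.40%). The same share was 27.2% of 408 genes for reference 2 (38.3% of all tested), 39.7% of 174 for salt 1 (45.1%), 49.7% of 159 for reference 3 (48.2%) and 55.1% of 78 for salt 2 (51.3%). A left-out library thus lay with the other station in most of the genes also for reference 2 and salt 1, though in a smaller share than for salt 3 and reference 1. For salt 3 and reference 1 these shares are no separate evidence. These libraries are very alike, and each gene set was picked with the other library in the fit.

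**Figure D2:**
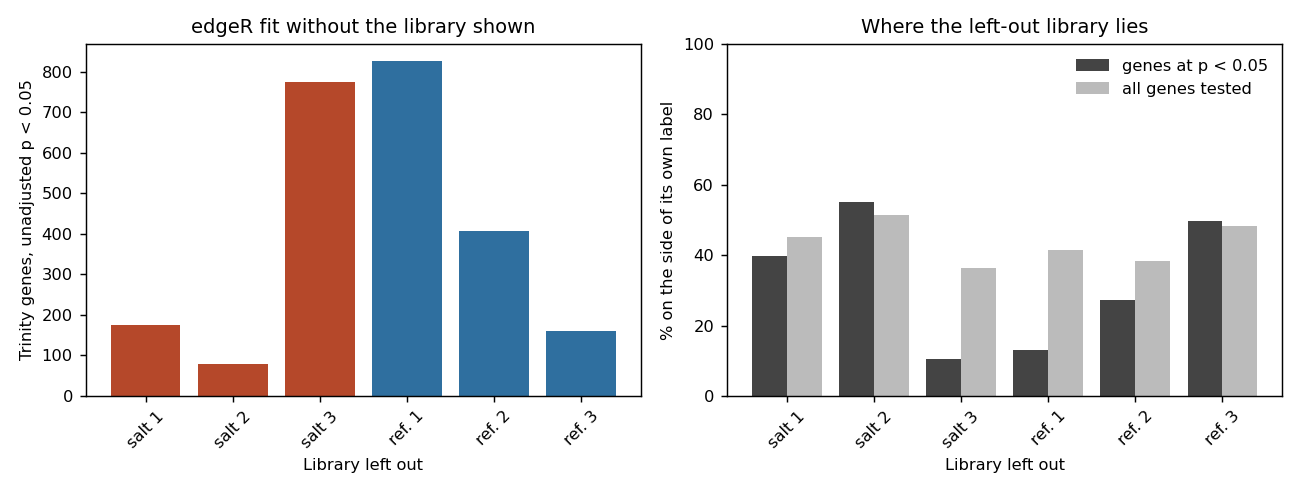
Left, number of Trinity genes at an unadjusted edgeR p under 0.05 when the library on the horizontal axis is left out (red, salt; blue, reference). Right, percentage of those genes (dark) and of all genes tested (light) in which the left-out library lies on the side of its own label: 10.5% for salt 3 and 12.9% for reference 1.

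Non-overlap of the stations was counted among features with a mean of at least 50 counts. Of 15751 Trinity genes, 606 (3.85%) were higher in every salt library than in every reference library, and 349 (2.22%) were lower. Without salt 3 these were 1704 (10.7%) and 1169 (7.33%) of 15945; with fewer libraries overlap is rarer by construction, so the rise is no measure of the effect of salt 3. Of 11890 protein hits, 340 (2.86%) were higher and 351 (2.95%) lower without overlap. Without salt 3 there were 1020 (8.51%) and 1035 (8.64%) of 11983. Non-overlap also arises where stations do not differ, and the share that would then arise was not computed. These counts therefore show no station difference by themselves.

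The genes described next had the smallest p among those without overlap. They were picked for their difference, so their values are a description. Reads of near-identical copies or of 2 alleles may be split between assembled genes. A difference in whole gill also does not tell fewer cells of a type from less RNA per cell.

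DN2067_c1_g2, an assembled gene with no protein hit, stood at 29.2, 33.2 and 8.28 CPM in salt 1, 2 and 3, against 5.44, 2.63 and 3.27 CPM in reference 1, 2 and 3. All salt values lay above all reference values, with salt 3 nearest to them. The means were 23.5 ± 13.4 CPM in salt and 3.78 ± 1.47 CPM in reference gills (SD, n = 3 each), and the log2 fold change was 2.58 (SE 0.61; edgeR adjusted p = 1.00). Without salt 3 it was 2.99 (SE 0.44; edgeR adjusted p = 0.869), and DESeq2 then called it (adjusted p = 1.77e-06). In brain it was at 3.79, 1.65 and 6.06 CPM in salt and 5.36, 1.28 and 3.04 CPM in reference fish, so the stations overlapped there.

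DN1964_c0_g1, which has no hit, was found at 4.31, 10.4 and 2.08 CPM in salt gills and at 0.688, 0.855 and 0.663 CPM in reference gills. The reference libraries were close together and the salt libraries spread, again with salt 3 lowest among them. The log2 fold change was 2.84 (SE 0.72; edgeR adjusted p = 1.00) and 3.23 (SE 0.67) without salt 3, where DESeq2 called it (adjusted p = 0.00415).

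DN39839_c0_g1, whose hit is zebrafish protein ENSDARP00000054822, stood at 23.3, 27.4 and 35.4 CPM in salt 1, 2 and 3 and at 48.9, 53.7 and 67.0 CPM in reference 1, 2 and 3. This was the even pattern among the genes described: the groups did not overlap and no single library stood apart. Means were 28.7 ± 6.13 CPM in salt and 56.5 ± 9.38 CPM in reference gills (SD, n = 3 each), and the log2 fold change came to -1.04 (SE 0.23; edgeR adjusted p = 1.00). Without salt 3 it was -1.21 (SE 0.27), and DESeq2 then called it (adjusted p = 0.000409). In liver its level was 1.45, 1.85 and 1.85 CPM in salt and 3.67, 3.69 and 8.80 CPM in reference fish, lower in salt without overlap. In brain the salt values of 4.73, 6.0 and 4.71 CPM lay above the reference values of 4.18, 2.93 and 2.91 CPM. edgeR called neither difference. The log2 fold change was -0.69 (SE 0.39; edgeR adjusted p = 0.815) in liver and 0.62 (SE 0.26; edgeR adjusted p = 0.776) in brain. The fit rescales the libraries, which the CPM do not.

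DN62558_c0_g1, with no hit, stood at 2.05, 2.89 and 3.24 CPM in salt gills and at 3.31, 35.7 and 50.5 CPM in reference gills. Only reference 2 and 3, the libraries coded A, were high, and reference 1 was within 0.1 CPM of salt 3. The log2 fold change, -3.51 (SE 0.92; edgeR adjusted p = 1.00), therefore rests on these libraries, and what the letter stands for was not tested. DESeq2 called it without salt 3 (adjusted p = 0.0421).

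Other genes separated salt 1 and salt 2 from the rest. DN492_c1_g1, with hit ENSDARP00000035665, stood at 53.0, 42.7 and 0.347 CPM in salt 1, 2 and 3 and had 0 counts in every reference gill. Salt 3 lay beside the reference gills. Taking 3 counts per library as the limit for a count of 0, the mean of salt 1 and 2 was at least 282-fold higher than in reference gills. DN8434_c1_g2, with hit ENSDARP00000109971, showed the same pattern, at 29.2, 42.9 and 0.0579 CPM in salt and 0.0625, 0.132 and 0 CPM in reference gills. edgeR gave each an adjusted p of 0.687 without salt 3, and DESeq2 called both with and without it (adjusted p = 3.24e-05 and 0.0168 with all libraries).

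In the other direction, DN17513_c0_g2, with no hit, had 0 counts in salt 1 and salt 2 and 21.3 CPM in salt 3, against 19.4, 15.1 and 36.6 CPM in reference 1, 2 and 3. Salt 3 lay within the range of the reference gills. With the same limit for a count of 0, salt 1 and 2 were at least 163-fold lower than the reference gills (edgeR adjusted p = 0.687 and DESeq2 adjusted p = 7.28e-10 without salt 3), and with all libraries the log2 fold change was -1.80 (SE 2.02).

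**Figure D3:**
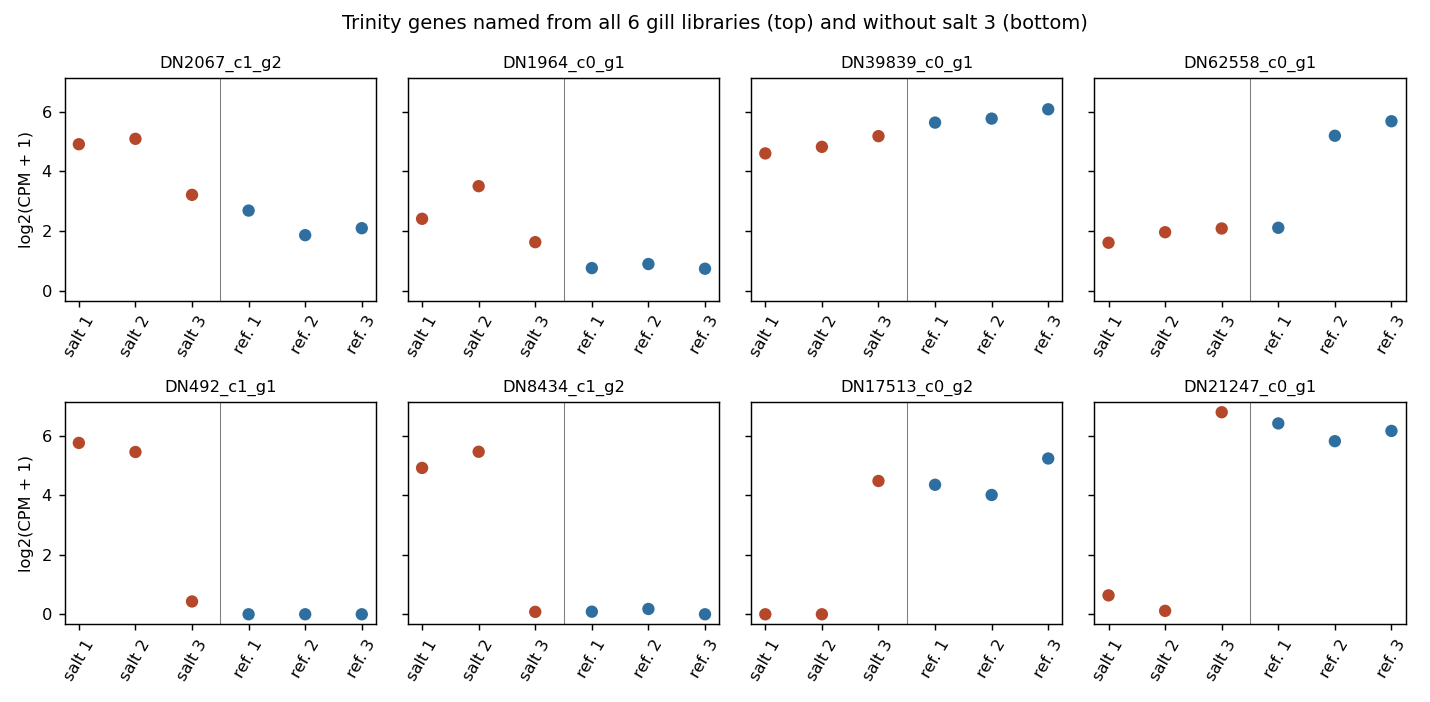
Level of 8 Trinity genes as log2(CPM + 1) in each gill library, 1 point per library (red, salt; blue, reference). In the top row, chosen with all libraries, no salt point overlaps a reference point, although DN62558_c0_g1 is high in reference 2 and 3 only; in the bottom row, chosen without salt 3, salt 3 lies with the reference libraries.

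DN21247_c0_g1, whose hit is ENSDARP00000108089, made the position of salt 3 plainest. It stood at 0.553, 0.0826 and 109 CPM in salt 1, 2 and 3 and at 83.9, 55.2 and 70.4 CPM in reference 1, 2 and 3. Salt 1 and 2 were close to 0, while salt 3 was above every reference gill. With all libraries the log2 fold change was -1.01 (SE 1.88), and without salt 3 it was -7.85 (SE 0.89; adjusted p = 0.687). DESeq2 called it without salt 3 (adjusted p = 2.34e-25).

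The gene behaved alike in the other tissues. In brain it was at 0, 0.127 and 0.0409 CPM in salt and 20.5, 3.96 and 11.8 CPM in reference fish, and in liver at 0.1, 0.135 and 0.103 CPM in salt and 31.6, 6.24 and 37.1 CPM in reference fish. Every salt library of brain and liver was close to 0 and no reference library was. The log2 fold change was -7.67 (SE 1.05; edgeR adjusted p = 0.296) in brain and -6.94 (SE 0.88; edgeR adjusted p = 0.575) in liver. The brain and liver of the fish code that gill salt 3 carries are among the libraries near 0, with 0 and 4 counts, while the gill library of that code had 109 CPM. Of the 9 libraries labelled salt over the 3 tissues, 8 were thus close to 0, and gill salt 3 was not. The salt libraries of brain and liver carry the same fish codes, and gill salt 1 shares a code with them. These libraries are therefore not separate replicates of the station.

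**Figure D4:**
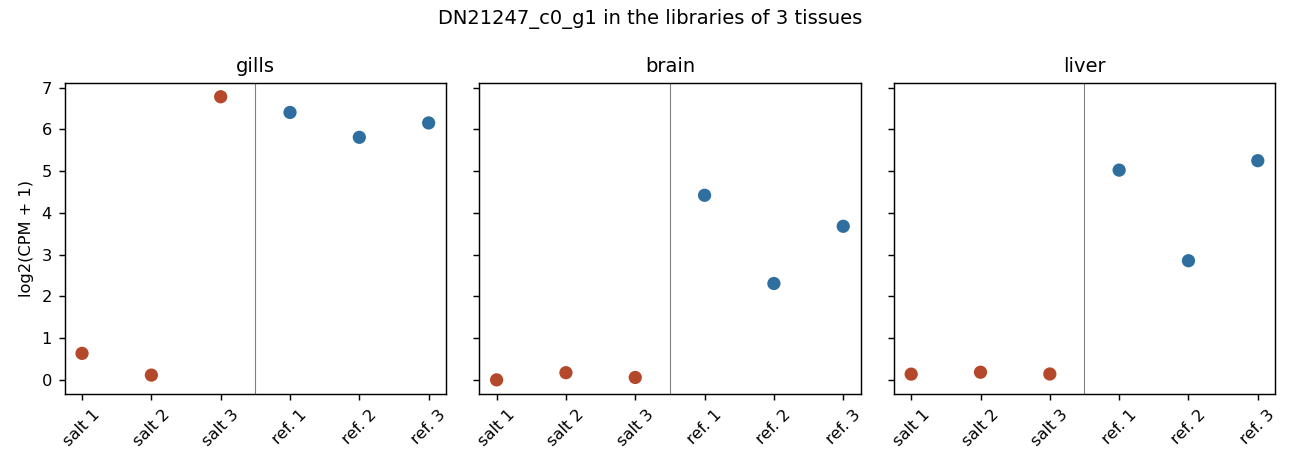
Level of DN21247_c0_g1 as log2(CPM + 1) in the 6 libraries of each tissue (red, salt; blue, reference); numbers are those of each tissue's own labels and do not mark the same fish across panels. All salt libraries lie near 0 except gill salt 3, at 109 CPM.

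DN8434_c1_g2 did not keep its pattern across tissues. In brain it stood at 0.0696, 47.0 and 89.2 CPM in salt and 0, 0.577 and 26.4 CPM in reference fish, so that fish of both stations were near 0 and fish of both were high. DN492_c1_g1 was at 5.2 CPM in 1 salt brain and 1.40 CPM in 1 reference brain, and at 0 in the other 4. Both genes thus varied between fish within a station outside the gill.

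Among the 5 Trinity genes that DESeq2 called with all libraries, 1 was lower in salt gills, and it did not depend on salt 3. DN1388_c0_g1, with hit ENSDARP00000096919, had 0 counts in all 3 salt gills and 17, 30 and 93 counts in reference 1, 2 and 3. That is 0 CPM in salt and 1.06, 1.97 and 3.85 CPM in reference gills, at least 14.9-fold lower with 3 counts per library as the limit for a count of 0 (DESeq2 adjusted p = 0.0316 with all libraries and 0.00619 without salt 3). edgeR did not call DN1388_c0_g1 in either setting, and its unadjusted edgeR p was 0.00366 without salt 3. It is not in the brain or liver tables, so its pattern could not be followed there. Each of the 4 genes called higher stood at 11.2 CPM or more in salt 1 or salt 2 and at 0.347 CPM or less in salt 3. Of the 206 genes called without salt 3, 66 had 0 counts in both remaining salt gills and 23 had 0 in all reference gills, together 43.2%, against 1.90% of all Trinity genes.

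Among the protein hits, ENSDARP00000053130 stood at 197, 157 and 48.8 CPM in salt 1, 2 and 3, against 48.3, 47.4 and 68.7 CPM in reference 1, 2 and 3. Salt 1 and 2 were high, and salt 3 lay within the reference range, beside reference 1. The log2 fold change was 1.31 (SE 0.51) with all libraries and 1.71 (SE 0.25; edgeR adjusted p = 1.00) without salt 3, where DESeq2 called the hit (adjusted p = 7.40e-07). In brain the same hit was at 75.1, 46.2 and 55.4 CPM in salt and 13.2, 50.4 and 15.999 CPM in reference fish, with overlap in 1 fish of each station.

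ENSDARP00000028924, a protein hit whose transcripts are tagged with up to 5 transmembrane segments, stood at 93.9, 74.6 and 311 CPM in salt 1, 2 and 3 and at 311, 255 and 250 CPM in reference 1, 2 and 3. Salt 1 and 2 were low and salt 3 was level with reference 1. Its log2 fold change was -0.80 (SE 0.53) with all libraries and -1.69 (SE 0.27; edgeR adjusted p = 1.00) without salt 3, where DESeq2 called it (adjusted p = 9.22e-08). In liver the salt values of 8.55, 11.9 and 10.6 CPM lay below the reference values of 43.7, 22.2 and 16.4 CPM, where the log2 fold change was -0.73 (SE 0.57). In brain the salt values were 12.4, 4.39 and 7.74 CPM and the reference values 8.58, 4.16 and 1.77 CPM, which overlap, at a log2 fold change of 0.74 (SE 0.64). ENSDARP00000062082 had 0 counts in salt 1 and 2 and 14.1 CPM in salt 3, against 12.8, 23.4 and 9.86 CPM in reference gills (DESeq2 adjusted p = 2.37e-07 without salt 3). Its gill counts all come from the gene DN2948_c0_g1. The hit was present in every liver library, but DN2948_c0_g1 is not listed in liver. The liver counts thus belong to other assembled genes with this hit, and the gill pattern could not be followed there. All 6 hits per direction chosen in this way had an edgeR adjusted p of 1.00.

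Pumps, channels and cotransporters have many membrane-spanning segments, and the identifiers carry a predicted number of these. Transcripts tagged with 2 to 6 segments took 4.68%, 4.77% and 4.71% of all counts in salt 1, 2 and 3, against 4.52%, 4.54% and 4.13% in reference 1, 2 and 3. The salt shares lay within 0.1 percentage points of each other and above all reference shares. The means were 4.72 ± 0.0442% in salt and 4.40 ± 0.235% in reference gills (SD, n = 3 each; exact two-sided permutation p = 0.1, the smallest that 3 against 3 can give, and 0.44 adjusted over 11 shares). This was a share in which salt 3 stood with salt 1 and 2. Without salt 3 the exact permutation p was 0.2, and the difference was 0.326 percentage points, against 0.321 with all libraries.

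Transcripts tagged with 7 segments, the number in G protein-coupled receptors, took 0.666%, 0.648% and 0.560% in salt and 0.542%, 0.574% and 0.519% in reference gills (exact p = 0.2). The salt 3 value fell among the reference values. The classes with 8 to 11 segments and with 12 or more, where many ion and solute transporters belong, took 0.918 ± 0.0546% and 1.01 ± 0.0856% in salt, against 0.767 ± 0.104% and 0.952 ± 0.161% in reference gills (SD, n = 3 each; exact p = 0.2 and 0.7). Both overlapped between stations. Without salt 3 the exact permutation p was 0.2 for 7 segments, 0.4 for 8 to 11 and 0.6 for 12 or more.

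Gene by gene, few members of the membrane classes reached an unadjusted edgeR p under 0.05, as in the table as a whole, where 1.05% of 22958 genes did. Of 982 genes tested with 2 to 6 segments, 5 were higher and 3 lower (0.815%), with a median log2 fold change of 0.03, the same as over all genes. Of 205 genes with 8 to 11 segments, 3 were higher and 0 lower (1.46%), with a median of 0.07. Of 182 genes with 7 segments 0 reached that p, with a median of 0.11, and of 100 genes with 12 or more segments 0 did, with a median of 0.09. Without salt 3 the 7-segment class had 6 higher and 0 lower of 185 (3.24%, against 3.22% of all genes) and a median of 0.18, against a median of 0.04 over all genes. The class with 12 or more then had 3 higher and 1 lower (3.96%), with a median of 0.17, that with 8 to 11 had 4 higher and 2 lower of 213 (2.82%), and that with 2 to 6 had 14 higher and 14 lower of 1006 (2.78%). edgeR called 0 genes of each class in both settings.

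Ionocytes are rich in mitochondria, and transcripts hitting mitochondrially encoded proteins took 0.276%, 0.370% and 0.241% of counts in salt 1, 2 and 3 and 0.203%, 0.306% and 0.160% in reference 1, 2 and 3. The ranges overlapped (exact two-sided permutation p = 0.3, and 0.4 without salt 3). The class held only 6 transcripts, and DN112276_c2_g1_i3 alone made up most of it. That transcript stood at 2400, 3375 and 2032 CPM in salt and 1711, 2730 and 1278 CPM in reference gills. The share is therefore no measure of all mitochondrial RNA or of ionocytes. COX1, the core subunit of cytochrome c oxidase, stood at 83.6, 72.0 and 96.6 CPM in salt and 91.3, 94.1 and 112 CPM in reference gills, and its log2 fold change was -0.25 (SE 0.18). The entry that carries most of the mitochondrial counts, XENTRmt_YP_203382.1, stood at 2672.5, 3626 and 2311 CPM in salt and 1938, 2966 and 1481 CPM in reference gills, with a log2 fold change of 0.40 (SE 0.38). Their log2 fold changes had opposite signs, and with all libraries the ranges of the stations overlapped in each. Without salt 3 the log2 fold changes were -0.34 for COX1, whose ranges then did not overlap, and 0.54 for XENTRmt_YP_203382.1.

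The protein hits with the most counts in gill had small mean differences in RNA level between stations, though not all were steady within a station. The 8 hits with the highest mean level together took 5.93%, 4.92% and 5.76% of counts in salt and 6.02%, 5.84% and 6.63% in reference gills. The highest of them, ENSDARP00000006339, stood at 11943, 10601 and 11206 CPM in salt and 11941, 10524.5 and 13365 CPM in reference gills. ENSDARP00000092488 varied widely within each station, at 9925, 6108 and 4424 CPM in salt and 4599, 8786 and 14399 CPM in reference gills. ENSDARP00000058869, tagged with 12 transmembrane segments, was nearly level over all fish, at 4830, 4261 and 5300 CPM in salt and 4978, 4295 and 4918 CPM in reference gills. Log2 fold changes of the 8 hits ran from -0.43 to 0.11, and from -0.46 to 0.08 without salt 3. The 10 most abundant transcripts were picked in each library separately, so the set can differ between libraries. They took 6.21%, 5.91% and 6.04% of counts in salt 1, 2 and 3, against 7.13%, 6.60% and 7.18% in reference 1, 2 and 3. The salt shares were lower without overlap (exact two-sided permutation p = 0.1, 0.44 adjusted over 11 shares). Without salt 3 the exact permutation p was 0.2. The 10 transcripts were not limited to fish hits. All transcripts with hits under codes outside the vertebrate, ciliate, invertebrate and mitochondrial classes took 21267, 12530 and 18784 CPM in salt gills. In reference gills they took 32879, 22993 and 21131.5 CPM, with overlap. Their part in the share of the 10 transcripts was not computed.

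The choice of transcript within a gene was compared in the same way. Of 31005 transcripts, 1656 (5.34%) in 1290 genes had shares of their gene that did not overlap between stations, and without salt 3 the number was 5153 (16.6%) in 3069 genes. Groups of fewer libraries overlap less often by construction, so the larger number is no measure of the effect of salt 3. Shares can also be free of overlap where stations do not differ, so neither number shows a station difference by itself. DN2754_c3_g1_i1, with hit ENSDARP00000105440, made up 100%, 52.4% and 100% of its gene in salt 1, 2 and 3 and 0% in each reference gill. The gene itself stood at 27.9, 40.2 and 31.0 CPM in salt and 30.7, 35.9 and 33.997 CPM in reference gills, a log2 fold change of -0.09. Here the transcript differed while the level of the gene overlapped.

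DN16199_c0_g1_i3, with hit ENSDARP00000101866, ran the other way, at 0% of its gene in all salt gills and at 64.3%, 100% and 100% in reference 1, 2 and 3. The level of this gene was not steady. It was 37.8, 268 and 16.3 CPM in salt and 12.4, 10.7 and 27.4 CPM in reference gills, a log2 fold change of 2.61. In the transcript shares of both of these genes, salt 3 stood with the salt gills. DN15940_c0_g1_i14 made up 100%, 100% and 25.7% of its gene in salt 1, 2 and 3 and 11.4%, 0% and 0% in reference gills, so that salt 3 lay between. DN6153_c0_g1_i13 was at 0% in salt 1 and 2 and at 99.2% in salt 3, against 100%, 66.9% and 98.4% in reference gills, with a level of the whole gene between 243 and 348 CPM in all 6 libraries. These genes were chosen for the difference in share, and whether the transcripts are splice forms or alleles was not tested.

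Some gill transcripts had hits to proteins of organisms that are not fish. Ciliates are single-celled organisms of water, some of which live on fish gills, and 148 transcripts had a first hit to the ciliates Tetrahymena thermophila or Paramecium tetraurelia. Together they stood at 96.0, 5.70 and 450 CPM in salt 1, 2 and 3 and at 526, 239 and 0.0414 CPM in reference 1, 2 and 3. High and low libraries occurred at both stations: reference 3 had a single count in all 148 transcripts, and salt 3 and reference 1 each had counts in 144 of them. Means were 184 ± 235 CPM in salt and 255 ± 263 CPM in reference gills (SD, n = 3 each; exact two-sided permutation p = 0.8, and 0.6 without salt 3). Brain libraries reached at most 3.21 CPM in 1 such transcript and liver libraries 25.2 CPM in 3.

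Which ciliate transcripts were present differed between fish. The log2(CPM + 1) levels of the 148 transcripts correlated between salt 3 and reference 1 at r = 0.928 and between salt 1 and reference 2 at r = 0.881. In the other 13 pairs r was at most 0.379. In DN18798_c0_g1_i10, with hit TTHERM_00105110, there were 283, 2 and 33 counts in salt 1, 2 and 3 and 23, 539 and 0 in reference 1, 2 and 3. DN18798_c0_g2_i1, an assembled relative with the same hit, had 40, 6 and 323 counts in salt and 396, 81 and 0 in reference gills. The first was high in salt 1 and reference 2 and the second in salt 3 and reference 1. That makes 2 pairs that each join a library labelled salt with a library labelled reference. A hit names the most similar protein in the searched set and not the organism, and which organism carried these transcripts was not tested.

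Hits to invertebrate proteins, 695 transcripts, stood at 5066, 2696 and 2535 CPM in salt 1, 2 and 3 and at 2249, 2632 and 1901 CPM in reference 1, 2 and 3. Salt 1 stood above the other libraries, which lay closer together (exact two-sided permutation p = 0.2, both with all libraries and without salt 3). Unlike the ciliate class, invertebrate hits were at a like level in brain, at 2155 to 2726 CPM, and at 859 to 3792 CPM in liver. The number of these transcripts with a count was 611, 599 and 332 in salt and 320, 585 and 413 in reference gills, so salt 3 and reference 1 had the fewest. The log2(CPM + 1) levels in this class correlated at r = 0.934 between salt 3 and reference 1 and at 0.624 between salt 1 and reference 2.

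**Figure D5:**
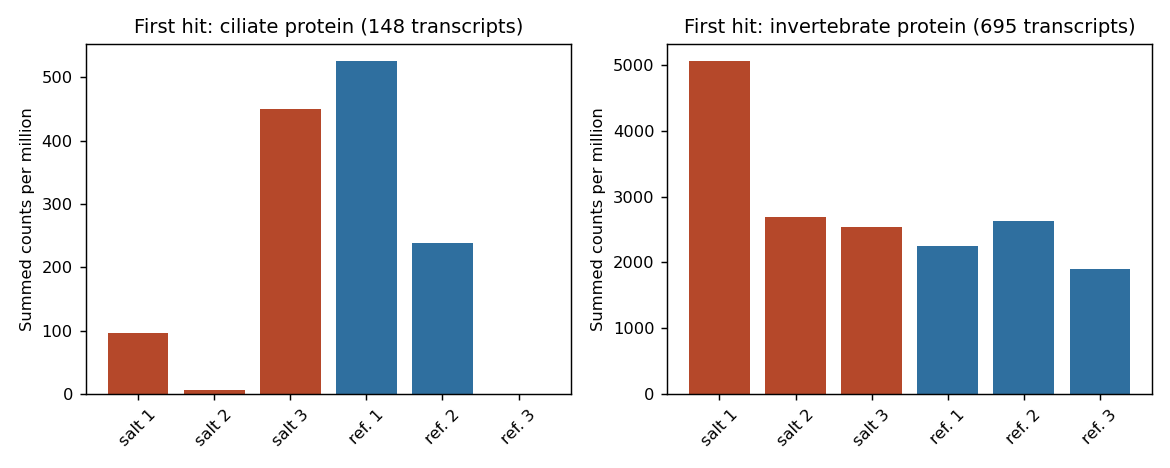
Summed CPM per gill library of the transcripts whose first hit is a ciliate protein (left, 148 transcripts) or an invertebrate protein (right, 695 transcripts); bars are single libraries (red, salt; blue, reference). Ciliate hits are high in salt 3, reference 1 and reference 2 and near 0 in reference 3, and invertebrate hits are highest in salt 1.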

How the data were processed

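The authors deposited 1 table of whole-number read counts per assembled transcript for each tissue; per the submitters' processing notes Trimmomatic and DESeq2 were used, with other steps not given in the sources used. RNA was extracted with a column kit and sequenced from TruSeq libraries, per the labels' protocols. Libraries were matched to columns by their codes. All 55872 gill transcripts reach 1 CPM in at least 2 libraries.

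Counts were summed per Trinity gene and per first listed protein hit, and fitted with edgeR 4.0.16 in R 4.3.3 (filterByExpr, TMM factors, quasi-likelihood test, Benjamini-Hochberg adjustment over all features, threshold 0.05) on the 6 gill libraries. DESeq2 1.42.0 and limma-voom (limma 3.58.1) were alternatives. Standard errors were derived from F (log2 fold change over its root). CPM use total counts. Shares were set against each other with exact two-sided permutation tests. Counts carry no molecular identifiers, so a limit for a count of 0 covers counting error only.

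The rule for named features took the 6 per direction with the lowest unadjusted p, out of those averaging 50 or more counts whose stations did not overlap, with all libraries and without salt 3; at most 2 per direction are printed. DN1388_c0_g1 and the tissue values were chosen after their values were seen, and the members and lists were chosen with earlier results of these data known. The p-values refer only to these libraries, which may not all be separate fish, and not to other fish or other stations.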

Additional observations from a re-analysis of the deposited data

How the results depend on the processing

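Counts of Trinity genes at an unadjusted edgeR p under 0.05 (241) ran from 78 to 827 when 1 library was left out, those of hits (155) from 55 to 532 and those of transcripts (377) from 499 to 2018. Without reference 1 edgeR called 1 hit; all else left out singly gave 0 calls. Without salt 3 and reference 1 together the counts were 739, 418 and 2887, with 0 calls. DESeq2 called 5 genes, 4 hits and 260 transcripts, with 637, 348 and 2668 at an unadjusted p under 0.05; without salt 3, an alternative chosen after seeing the data, it called 206, 92 and 1756, with 1465, 848 and 4818. limma-voom called 0 and had 408 genes and 1209 transcripts at that p, and 958 genes, 508 hits and 2826 transcripts without salt 3. Without the filter on low counts 1172 transcripts reached it. The cause of these moves was not tested.

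The labels give no pairing of fish by replicate number. Deviations of same-numbered gills correlated at -0.349, 0.163 and -0.00623, and those of differently numbered gills at -0.506 to 0.635. These values cannot show whether the numbers pair anything. With a replicate block edgeR called 0 features, with 276 genes, 165 hits and 192 transcripts at an unadjusted p under 0.05. RLE factors gave 229 genes. Without scaling factors there were 178 genes higher and 71 lower, against 135 and 106, and the median log2 fold change of all genes was 0.09 in place of 0.03.

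Of the shares, 6 differences changed sign, in percentage points of salt minus reference: ciliate hits gave 0.00180 without salt 2 and 0.00644 without reference 1 (-0.00711 with all; -0.0204 to 0.00644 over single libraries left out), the sigP tag, which most hits carry, 0.364 without salt 2, 0.241 without reference 3 and 0.522 over hits alone (-0.416; -1.30 to 0.364), and 12 or more segments -0.0246 without reference 3 (0.0561; -0.0246 to 0.136). The r of transcript shares between salt 3 and reference 1 was 0.610 and 0.695 at minimums of 50 and 200 counts.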

Other observations

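Some abundant hits were present in a few gills and absent from others without following the station. The hit XENTR_XP_002935931.2 stood at 411, 0.0413 and 690 CPM in salt 1, 2 and 3 and at 679, 0 and 0 CPM in reference 1, 2 and 3. ENSDARP00000018938 stood at 1467, 2.85 and 1050 CPM in salt and 1041, 1.84 and 2.61 CPM in reference gills, high in the same 3 libraries. ENSDARP00000003905 was at 0.277, 100.9 and 0.521 CPM in salt and 0.125, 2852 and 168 CPM in reference gills, high in reference 2. AMPQU_Aqu1.211167, a sponge protein hit, stood at 485 CPM in salt 3 and 441 CPM in reference 1, with at most 1 count in the other 4 gills. Each was chosen for its spread over the 6 libraries.

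The genes over 2-fold apart between the similar gills, salt 3 and reference 1, included abundant ones. DN3939_c0_g1 stood at 5503, 1434 and 4643 CPM in salt 1, 2 and 3 and at 12945, 6247 and 3519 CPM in reference 1, 2 and 3. DN16516_c0_g1 was at 3149, 964 and 3320 CPM in salt and 8017, 3497 and 4973 CPM in reference gills. Their hits carry the codes EUCCA and EMIHU, which are not of fish.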
